A study of Mus musculus with 10 samples.

Results

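Macrophages sorted from lung metastases were examined for 10 genes that mark macrophages of the serous cavities: Gata6, Prg4, Timd4, F5, Serpinb2, Icam2, Alox15, Selp, Garnl3 and Cd5l. They were taken by symbol, as a list of 10 among the 24538 genes of the count files. The 11571 tested genes had a mean FPKM, a level per transcript length, of at least 1 in either group of libraries. Of the 10, 8 were among them. The 10 genes were selected on their higher levels in these macrophages than in alveolar macrophages of normal lung. Their variation among the metastasis libraries also served in the selection, with results from these libraries already known. What follows for the 10 genes is a description of their levels, for which no p-value is given. The first group was 5 libraries of metastasis-associated macrophages (MAMs), CD45+F4/80+LY6C-MRC1+ cells of high forward scatter that were CD11B+CD11C-. They came from dissected lung metastases of female wild-type C57BL6/J mice, 11 days after tail vein injection of E0771-LG cells, a mouse mammary cancer line. Each MAM sample was a pool from 2 to 4 mice, so a library is not 1 animal. The second group was 5 libraries of resident alveolar macrophages (RAMs), which shared the first markers but were CD11B-CD11C+. They came from lungs of untreated mice without tumour. By the paper, wild-type C57BL6/J mice were randomly split between the control and metastasis groups. The labels give an age of 8 to 10 weeks for both groups, and of 6 to 8 weeks at injection for the MAM mice. Lungs were perfused before dissection, and transcription inhibitors were present while the tissues were digested. No sample of pleural or peritoneal macrophages was part of the comparison.

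Large macrophages of the peritoneal and pleural cavities are resident cells that depend on the transcription factor GATA6. GATA6 is induced in them by retinoic acid, which is made by RALDH enzymes such as that of Aldh1a2 and is supplied largely by mesothelial and stromal cells lining the cavity. These cells are known for taking up apoptotic cells through TIM4, for clotting factors and arachidonate lipoxygenase, and for low MHC class II. The small macrophages of the cavities, another population, descend from monocytes and carry MHC class II and CD226. Several of the 10 genes are not limited to cavity cells: Cd5l and Timd4 also mark Kupffer cells, Selp marks platelets and endothelium, Icam2 marks endothelium, and Alox15 marks eosinophils.

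Libraries had between 55391447 and 87523247 reads on genes in MAMs and between 50746305 and 72150650 in RAMs. Levels are given as CPM, which is a gene's count scaled to the TMM-normalized total of the tested genes in its library, and log2 CPM with a prior count of 2. The genes of the sorting markers were read first. Itgam, the gene of CD11B, ran from 5848 to 6844 CPM in MAMs and from 59.5 to 72.2 in RAMs, and Itgax, the gene of CD11C, from 145 to 240 and from 880 to 1110. Both followed the gate. Mrc1 (1191 to 1553 CPM in MAMs, 2544 to 2728 in RAMs), Ptprc (933 to 999 and 1038 to 1132) and Adgre1 (236 to 339 and 214 to 251) were present in every library. Of the genes of LY6C, which the gate leaves out, Ly6c2 was at 2.81 to 15.4 CPM in MAMs and Ly6c1 at 0.183 to 5.19. Of 11 alveolar macrophage genes, which go with the labelled cell type of RAMs, 10 were called lower in MAMs, against 15.1% of all tested genes. Siglecf was among them, at 3.09 to 4.82 CPM in MAMs, against 304 to 385 in RAMs.

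The promoters of the genes that moved most alike are shown with that of Cd5l, which varied least, because GATA6 is the factor for which this set of genes is known. Each sequence is the 250 bases before the transcription start in RefSeq, on GRCm38.p6, 5′ to 3′ on the gene's own strand, which is the plus strand for all 4. They lie at chr11:46810549-46810798 for Timd4, chr1:164115014-164115263 for Selp, chr1:107511173-107511422 for Serpinb2 (the first of its 2 starts) and chr3:87357631-87357880 for Cd5l. Capitals mark a motif of GATA factors on either strand, which was read as the letters AGATAA, as the letters TGATAA, and as either of these with a final G (that is, AGATAG and also TGATAG), with no overlap among the matches shown.

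Timd4: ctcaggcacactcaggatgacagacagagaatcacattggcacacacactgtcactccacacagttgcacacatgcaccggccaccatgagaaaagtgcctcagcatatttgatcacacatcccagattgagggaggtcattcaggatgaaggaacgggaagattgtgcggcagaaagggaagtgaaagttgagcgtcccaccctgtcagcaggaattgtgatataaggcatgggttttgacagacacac
Selp: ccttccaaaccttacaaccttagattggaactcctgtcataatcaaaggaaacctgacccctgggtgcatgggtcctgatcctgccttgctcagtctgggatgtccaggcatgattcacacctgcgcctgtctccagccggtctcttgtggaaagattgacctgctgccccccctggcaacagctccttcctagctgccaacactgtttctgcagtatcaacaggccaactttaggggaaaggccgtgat
Serpinb2: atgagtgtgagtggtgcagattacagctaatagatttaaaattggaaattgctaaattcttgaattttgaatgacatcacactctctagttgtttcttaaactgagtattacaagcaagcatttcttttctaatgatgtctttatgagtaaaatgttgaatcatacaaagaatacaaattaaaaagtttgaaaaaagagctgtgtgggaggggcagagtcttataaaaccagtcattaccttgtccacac
Cd5l: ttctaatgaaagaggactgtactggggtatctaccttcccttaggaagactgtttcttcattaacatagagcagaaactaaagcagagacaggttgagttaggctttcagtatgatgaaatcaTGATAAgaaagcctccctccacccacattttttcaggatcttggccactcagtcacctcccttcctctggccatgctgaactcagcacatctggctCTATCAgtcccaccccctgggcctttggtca

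Of the 10 genes, 6 had an entry, with 8 promoters in all, and a match stood in 2 of the 8, of 2 genes. These were the promoter of Cd5l, with 2 matches, and the other start of Serpinb2, with 1. Over all 32851 promoters of the table, 26.5% held a match. Gata6, Prg4, Icam2 and Alox15 had no entry.

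Gata6 encodes the transcription factor that sets the identity of large cavity macrophages. Its level in MAM replicates 1 to 5 was 3.82, 4.22, 1.16, 0.163 and 0.244 CPM, from 188, 225, 52, 9 and 17 reads. In RAM replicates 1 to 5 it was 0, 0.496, 0.0414, 0.0209 and 0 CPM, from 0, 33, 2, 1 and 0 reads, and a count of 0 allows up to 3. Gata6 was thus read in every MAM library, well in 3 of them and barely in replicates 4 and 5, and RAM replicate 2 lay above both of those. Its highest and lowest MAM libraries differed 25.9-fold, the widest span of the 10. Mean FPKM of Gata6 was under 1 in both groups, so it was not among the tested genes. A fit without that filter put it 4.07 (SE 1.36) higher in MAMs on the log2 scale. The gene overlaps the antisense transcript 1010001N08Rik, and the strand setting of the counting was not stated.

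Surface receptors and adhesion molecules came next. Timd4, the gene of the phosphatidylserine receptor TIM4 through which resident macrophages bind apoptotic cells, lies at chr11:46810800-46844332 and has 9 exons. It was at 272, 171, 107, 40.3 and 75.7 CPM in MAM replicates 1 to 5 and at 0.849 to 1.26 in RAMs. Every MAM library was over every RAM library, and within MAMs replicate 1 was 6.75-fold above replicate 4. The log2 fold change of MAMs over RAMs was 6.92 (SE 0.483).

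Icam2, the gene of an adhesion molecule that binds LFA-1 (chr11:106377656-106388075), was at 42.0, 32.4, 15.7, 14.2 and 17.7 CPM in MAM replicates 1 to 5. In RAMs it was at 2.52, 1.70, 4.00, 2.32 and 1.43 CPM. The groups did not overlap, and Icam2 was the member with the highest RAM level relative to MAMs among the 8 tested, at 9.79% of the MAM mean. Its log2 fold change was 3.35 (SE 0.374).

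Selp, the gene of P-selectin (chr1:164115264-164150026), was at 27.6, 20.7, 12.0, 4.11 and 9.28 CPM in MAM replicates 1 to 5. RAM libraries held 6 to 13 reads of it, which was 0.0901 to 0.277 CPM. The groups did not overlap, the MAM libraries spanned 6.72-fold, and the log2 fold change was 6.43 (SE 0.565). F5 starts just downstream of Selp on the same strand.

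Genes of secreted proteins and enzymes included the widest spans after that of Gata6. Prg4 encodes lubricin, the lubricating proteoglycan of joint and serosal surfaces (chr1:150449412-150466165, overlapping Tpr on the opposite strand). It was at 363, 193, 82.7, 20.9 and 42.8 CPM in MAM replicates 1 to 5, a span of 17.4-fold, and at 8.01, 7.40, 2.88, 5.22 and 5.84 CPM in RAMs. MAM replicate 4 was 20.9 CPM against a highest RAM library of 8.01, so the groups lay apart by little there and by much in replicate 1. The log2 fold change was 4.57, with the largest standard error of the 8 (0.650), and it was 3.85 without MAM replicate 1.

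Alox15 encodes the arachidonate lipoxygenase of resident peritoneal macrophages (chr11:70344152-70352031). It was at 176, 167, 58.6, 16.9 and 47.7 CPM in MAM replicates 1 to 5 and at 0.704 to 1.18 in RAMs. Replicates 1 and 2 were close to each other and the highest library was 10.4-fold above the lowest. The log2 fold change was 6.56 (SE 0.593).

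Serpinb2, the gene of plasminogen activator inhibitor type 2 (chr1:107511423-107535478, overlapping Serpinb10 on the same strand), was at 203, 205, 93.5, 37.7 and 88.5 CPM in MAM replicates 1 to 5. It was at 0.788 to 1.23 CPM in RAMs, with a log2 fold change of 7.01 (SE 0.454). F5, the gene of coagulation factor V (chr1:164151838-164220277), was at 173, 214, 105, 60.1 and 106 CPM in MAM replicates 1 to 5 and at 0.771 to 1.51 in RAMs, with a log2 fold change of 6.91 (SE 0.352). For both genes replicate 2 was the highest MAM library and replicate 4 the lowest, and the spans of 5.43-fold and 3.56-fold were narrower than that of Alox15.

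Cd5l encodes a secreted scavenger receptor protein that inhibits apoptosis of macrophages (chr3:87357881-87371073). It was at 214, 268, 183, 195 and 185 CPM in MAM replicates 1 to 5 and at 1.62 to 1.86 in RAMs, with a log2 fold change of 6.92 (SE 0.141). Cd5l differed between groups about as much as Timd4, F5 and Serpinb2 did, but its MAM libraries spanned 1.47-fold and its lowest was replicate 3. Garnl3, a GTPase activating protein gene (chr2:32986224-33131654), was at the other end of the range. It was at 1.65, 0.525, 1.32, 0.525 and 1.19 CPM in MAM replicates 1 to 5, from 28 to 83 reads, and at 0.325, 0.420, 0.642, 0.0209 and 0.533 CPM in RAMs. Its groups overlapped, and without the FPKM filter its log2 fold change was 1.44 (SE 0.917).

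**Figure D1:**
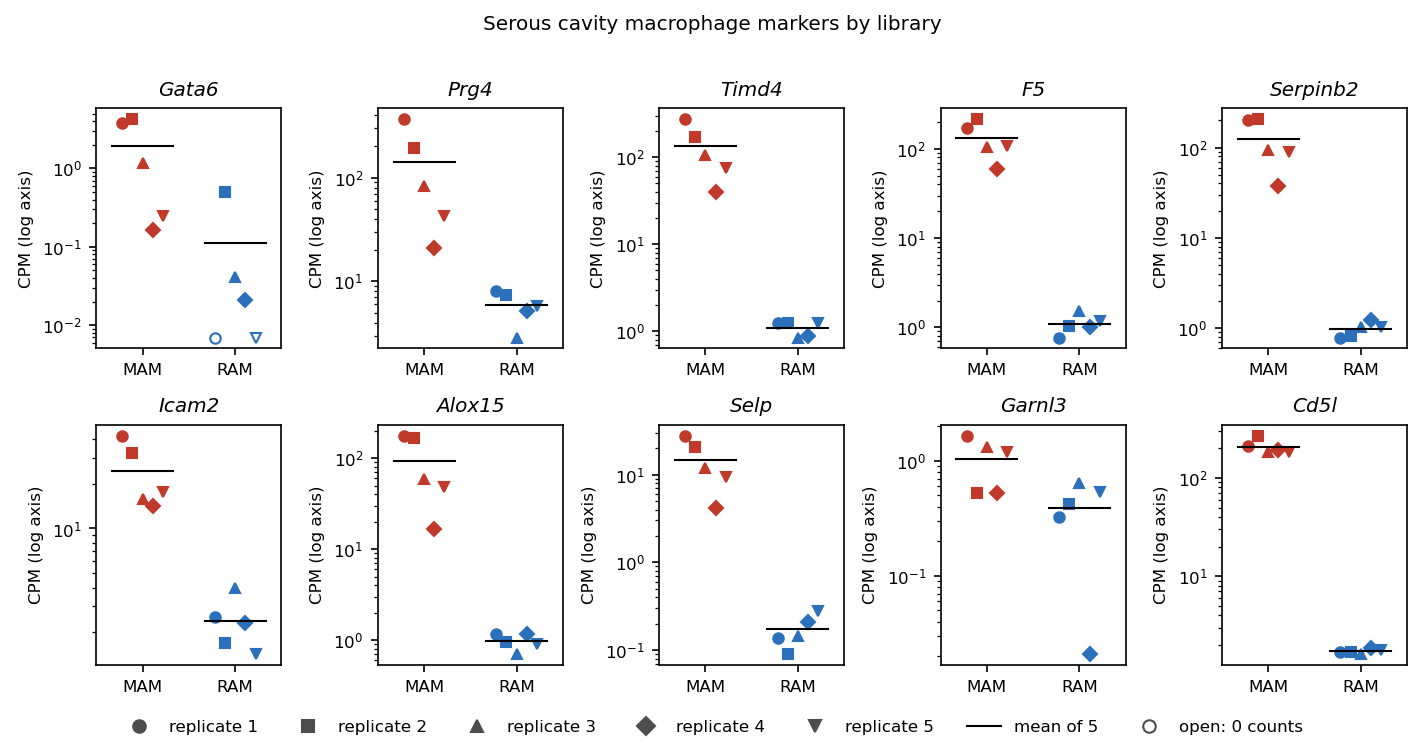
CPM of each of the 10 genes on a log axis, with MAM libraries in red, RAM libraries in blue, a marker shape for each replicate number, a line at the mean of 5 and open symbols for libraries with 0 counts. For 8 genes every MAM library was over every RAM library, and for Gata6 and Garnl3 the groups overlapped.

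All 8 tested members were called higher in MAMs (edgeR's quasi-likelihood test, with a fold above 2 and an adjusted p below 0.05 after Benjamini-Hochberg correction), where 15.3% of all tested genes were called higher and 30.3% in either direction. Among all tested genes, 23.7% had every MAM library over every RAM library, which held for 8 of the 10. Nothing is read from these counts, since the genes were listed for this contrast and 6 of the 8 passed the filter through their MAM level alone. Only Prg4 and Icam2 also reached a mean FPKM of 1 in RAMs, at 1.07 and 1.70. RAM means of Timd4, F5, Serpinb2, Alox15, Selp and Cd5l stood at 0.779% to 1.16% of the MAM means. Over the 115 genes with more than 1000 CPM in MAMs the lowest such share was 0.912%, and the source of the low RAM counts of these 6 markers was not tested.

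Levels of different genes can be set side by side only per transcript length, as FPKM. By mean FPKM in MAMs the order was Cd5l (109, SD 18.9), Timd4 (58.2, SD 39.5), Serpinb2 (54.3, SD 32.1), Alox15 (40.8, SD 31.7), Prg4 (36.8, SD 38.6), Icam2 (21.0, SD 10.6), F5 (16.6, SD 7.67), Selp (5.63, SD 4.10), Gata6 (0.791, SD 0.773) and Garnl3 (0.254, SD 0.106), with n = 5 for each. The ranges of neighbours in this order overlapped throughout. Cd5l had the highest mean, at 95.4 to 141 FPKM over libraries, but Timd4 reached 118 in its highest library. The highest Gata6 library, at 1.67 FPKM, was above the lowest Selp library, at 1.29, and below every MAM library of the 7 genes that come before Selp.

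**Figure D2:**
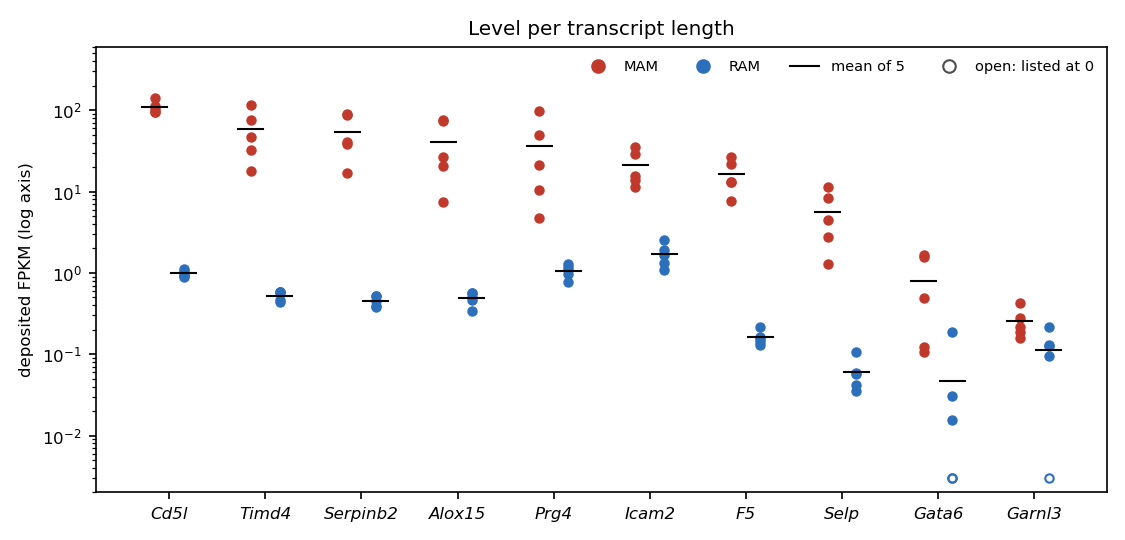
Deposited FPKM of the 10 genes on a log axis, ordered by mean in MAMs, with 1 point per library, a line at the mean of 5 and open points at the bottom for libraries listed at 0. Ranges of neighbouring genes overlapped in MAMs, from Cd5l at 95.4 to 141 FPKM down to Garnl3 at 0.159 to 0.428.

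Among the 5 MAM libraries the genes varied together. Of the 10, 9 had replicates 1 and 2 both above replicates 3, 4 and 5, a pattern noticed in these data, and 15.2% of all tested genes had it. Garnl3 was the exception. Replicate 4 was the lowest library for 9 of the 10, against 20.9% of tested genes, with Garnl3 in a near tie there between replicates 2 and 4. Both held, with replicate 4 the lowest of all, for Gata6, Prg4, Timd4, F5, Serpinb2, Icam2, Alox15 and Selp, and for 6.71% of tested genes. Replicate 1 was the highest for 6 genes (Prg4, Timd4, Icam2, Alox15, Selp and Garnl3), against 23.5% of tested genes, and replicate 2 for the other 4. Nothing is read from how these counts compare with the shares, since the genes were selected on their variation among these libraries. Without replicate 2, replicate 1 was the highest for all 10, and without replicate 1, replicate 2 was the highest for 9. The mean of replicates 1 and 2 over that of replicates 3 to 5 was 7.68-fold for Gata6, 5.70-fold for Prg4, 4.18-fold for Alox15 and 2.13-fold to 2.98-fold for Timd4, Selp, Serpinb2, Icam2 and F5. It was 1.28-fold for Cd5l and 1.07-fold for Garnl3. These are bulk samples of sorted cells, in which fewer cells of a type and less RNA per cell cannot be told apart.

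Each gene was then expressed as log2 CPM minus its own mean over the 5 MAM libraries, and the 10 were averaged. The mean stood at 1.11, 0.78, -0.07, -1.34 and -0.49 in replicates 1 to 5, a spread of 2.45 on the log2 scale or 5.46-fold. Without replicate 4 the spread was 1.60, and without Cd5l and Garnl3, left out after their values were seen, it was 2.85. The standard deviation of log2 CPM over MAM libraries was 2.06 for Gata6 and 1.65 for Prg4. Of tested genes with at least 5 CPM in MAMs, 0.0315% and 0.0630% varied more than these genes did, and of all tested genes, low ones included, 0.985% and 2.30% did. Gata6 itself is below 5 CPM. For Alox15, Selp, Timd4 and Serpinb2 the standard deviations were 1.41, 1.07, 1.06 and 1.01, exceeded by 0.168% to 0.914% of the genes with at least 5 CPM and by 3.77% to 7.72% of all tested genes. Icam2 and F5 were at 0.69 and 0.71, exceeded by 4.55% and 4.08%, or by 15.3% and 14.4% of all tested genes. Cd5l, at 0.23, lay in the middle, with 52.4% of genes with at least 5 CPM more variable. These ranks are a description only, since variation among these same libraries was part of how the 10 genes were selected.

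**Figure D3:**
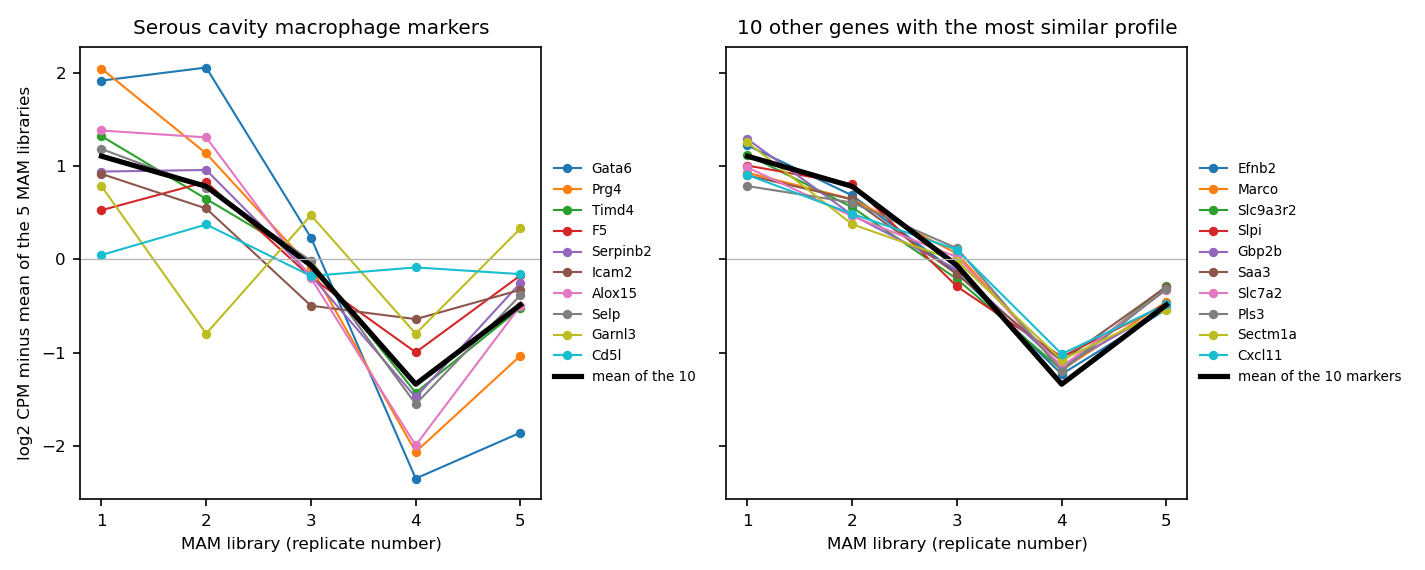
Log2 CPM minus the mean of the 5 MAM libraries, by replicate number, for the 10 genes (left) and for the 10 other genes with the most similar values (right), where lines only join the points of a gene and the thick line is the mean of the 10 markers. The mean ran from 1.11 in replicate 1 to -1.34 in replicate 4, and Gata6, Garnl3 and Cd5l lay farthest from it.

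Ratios within a library show how tightly single genes kept together. Selp per Timd4, as a ratio of CPM not corrected for length, stayed between 0.101 and 0.123 over all 5 MAM libraries while Timd4 itself moved 6.75-fold. Serpinb2 per Timd4 ran from 0.744 to 1.20, F5 per Timd4 from 0.635 to 1.49 and Alox15 per Timd4 from 0.418 to 0.979. Prg4 per Timd4 was 1.33, 1.13, 0.770, 0.519 and 0.566 in replicates 1 to 5, so that Prg4 was high relative to Timd4 in the libraries where both were high. Cd5l per Timd4 went the other way, at 0.784, 1.57, 1.70, 4.83 and 2.45. Gata6 per Timd4 was 0.0140, 0.0247, 0.0108, 0.00404 and 0.00323, though replicates 4 and 5 rest on 9 and 17 reads of Gata6.

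Most of the markers spanned less over RAM libraries than over MAM libraries. For the 8 tested markers, over the 5 RAM libraries, the highest level was 1.15-fold the lowest for Cd5l, 1.48-fold for Timd4, 1.56-fold for Serpinb2, 1.68-fold for Alox15, 1.96-fold for F5, 2.78-fold for Prg4, 2.80-fold for Icam2 and 3.08-fold for Selp, which had at most 13 reads there. For Icam2 this was close to its span of 2.95-fold in MAMs. Garnl3 spanned 30.8-fold in RAMs, from 1 to 31 reads, against 3.14-fold in MAMs.

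Other genes known from large cavity macrophages were taken from a list of 18, all of them tested. The list was chosen with earlier results of these data known, so its counts, median and p-values are a description only. Fn1 is also on the monocyte list used below, and Vsig4 on the list of Kupffer cells and other tissue macrophages. In MAMs 11 of the 18 rose and 2 fell, where 15.3% of all tested genes were called higher and 15.1% lower, and the median log2 fold change of the list was 4.18 against -0.02 over all tested genes. Ccl24, an eotaxin, ran from 22.7 to 64.3 CPM in MAMs, against 0.146 to 0.548 in RAMs (log2 fold change 6.76, SE 0.375, adjusted p = 6.2e-10, edgeR). Thbs1, the gene of thrombospondin 1, rose by 6.74 (adjusted p = 2.7e-16, edgeR). Saa3, an acute phase apolipoprotein gene, rose by 6.73, Cxcl13, a B cell chemokine gene, by 6.63, and Vsig4, a complement receptor gene, by 6.23. C4b, complement component 4, rose by 6.17, Efnb2, an ephrin ligand gene, by 5.87, Hdc, histidine decarboxylase, by 5.35, and Ltbp1, a TGF-beta binding protein gene, by 4.65. Aspa, aspartoacylase, rose by 3.70 with overlapping groups, and Fn1, fibronectin, rose by 2.05. Nt5e, the gene of CD73, fell by 1.99 and Tgfb2 fell by 2.19. The 5 that did not pass were Rarb (1.01), Itga6 (0.74), F10 (0.60), Slpi (0.42) and Cav1 (-0.55). Aspa, Ltbp1 and Tgfb2 were no longer called with limma on log2(FPKM + 1), at 0.94, 0.94 and -0.90. Single libraries moved 4 of the fold changes: Aspa was at 5.59 without RAM replicate 3, Ltbp1 at 6.82 without RAM replicate 5, Cxcl13 at 7.31 without RAM replicate 4 and Vsig4 at 5.35 without MAM replicate 1. With the replicate number as a block Aspa was at 4.79 and Ltbp1 at 5.85.

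The pattern of MAM replicates 1 and 2 above 3, 4 and 5 was met by 10 of these 18 genes (C4b, Ccl24, Cxcl13, Efnb2, F10, Fn1, Rarb, Saa3, Slpi and Vsig4), against 15.2% of tested genes. Replicate 4 was also the lowest in 7 of the 10, a combination that 6.71% of all tested genes had. C4b was at 309, 237, 152, 88.1 and 125 CPM in MAM replicates 1 to 5, Vsig4 at 41.5, 13.7, 7.07, 9.07 and 1.98, and Fn1 at 10409, 9037, 5887, 3588 and 5906. Thbs1 and Hdc, in contrast, were even over the MAM libraries, at 2488 to 2968 and 15.4 to 21.4 CPM.

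Of 17 genes for making, sensing and breaking down retinoic acid, 8 were tested, and 2 rose and 2 fell in MAMs, where 15.3% of all tested genes were called higher and 15.1% lower. This list too was chosen with earlier results of these data known, and nothing is read from its counts. Aldh1a2, the gene of the enzyme that makes retinoic acid, was at 194, 180, 83.8, 85.4 and 162 CPM in MAM replicates 1 to 5 and at 2.57 to 7.03 in RAMs. The libraries of the groups did not overlap, and its log2 fold change was 4.84 (SE 0.312, adjusted p = 3.5e-09, edgeR). Rarg, a retinoic acid receptor gene, rose by 1.62, while Rara and Rxra, which encode a receptor and a partner of it, fell by 1.58 and 1.49. Rarb, Rdh10 (0.66), Rxrb (-0.84) and Tgm2, a known retinoic acid target (0.90), did not pass. Tgm2 was called without RAM replicate 5, at 1.13, Rxrb with library totals alone, at -1.06, and Rarb in 6 alternatives (DESeq2, no filter, limma on log2(FPKM + 0.1), and without MAM replicate 3, MAM replicate 5 or RAM replicate 2), at 1.02 to 1.38. Aldh1a2 shared the high level of replicates 1 and 2 with 9 of the 10 genes, yet its lowest libraries were replicates 3 and 4 and its replicate 5 lay near 1 and 2. Crabp1 and Rxrg had 0 reads in all 10 libraries, and Cyp26b1, a retinoic acid hydroxylase gene that did not reach the filter, was at 0.632 to 8.56 CPM in MAMs.

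**Figure D4:**
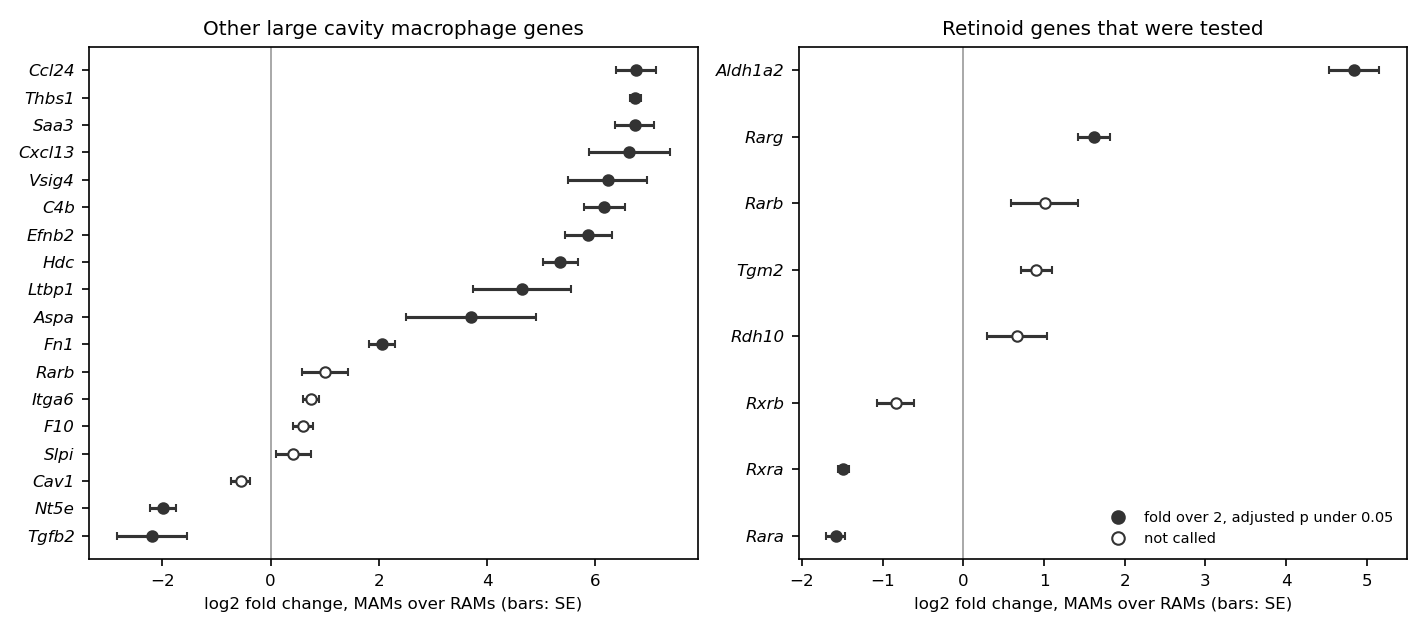
Log2 fold change of MAMs over RAMs with its standard error for 18 other genes known from large cavity macrophages (left) and the 8 tested retinoid genes (right), filled where called and open where not. On the left, 11 of the 18 are filled points to the right of 0, from Fn1 at 2.05 to Ccl24 at 6.76, and Aldh1a2 stands apart on the right panel at 4.84.

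Genes of other cell types that could be in the gate were set beside the same libraries. Their lists were also chosen with earlier results of these data known, so counts from them are a description only. Small cavity macrophage genes moved with the 10 markers. Of 10 listed, 9 were tested, all 9 were called higher in MAMs (15.3% of all tested genes), and 8 of the 9 had replicates 1 and 2 above the others (15.2% of all tested genes). Their summed level was 12737, 7752, 4028, 3805 and 5760 CPM in MAM replicates 1 to 5 and 577 to 1398 in RAMs, led by Cd74, H2-Aa and H2-Ab1, which serve MHC class II. Ccr2, which marks monocytes and their progeny, was at 521, 488, 332, 394 and 486 CPM. All 8 monocyte genes were also called higher and 4 of them had that pattern, against the same shares, with sums of 4584 to 11365 CPM in MAMs, against 1307 to 2285 in RAMs. Fn1 made up most of these sums, and without it they were 903 to 1093 CPM in MAMs. Vcan was at 158 to 274 CPM. What part monocyte-derived cells had in the spread of the 10 markers was not tested.

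Mesothelial genes had few reads. Of 9 listed, 8 were in the files and none reached the filter. Their sum was 19.7 CPM in MAM replicate 1, 0.187, 1.74, 0.434 and 0.244 in replicates 2 to 5 and 0.166 to 3.35 in RAMs. Gpm6a, Lrrn4 and Upk1b, the highest of them, all had their highest level in replicate 1, where Gpm6a was at 4.96 CPM and Lrrn4 at 3.96. In replicate 2, 9 of the 10 markers were above replicates 3 to 5, as in replicate 1. Gpm6a had 2 reads in replicate 2, and Lrrn4 and Upk1b had none. What part mesothelial cells had in the levels of the markers was not tested. Stromal genes were at 45.8, 8.21, 38.4, 10.5 and 24.8 CPM in the 5 MAM libraries, led by Acta2, Col3a1 and Col1a1, and at 3.77 to 9.96 in RAMs.

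Platelet genes bear on Selp and endothelial genes on Selp and Icam2. Both lists ran against the markers. The platelet sum was 356, 523, 790, 875 and 1051 CPM in MAM replicates 1 to 5 and 36.9 to 50.9 in RAMs, led by Pf4 (274, 406, 639, 715 and 789 CPM) and Ppbp, and Itga2b was at 0.356 to 4.74 CPM. Without Pf4 the sum was 82.0 to 262 CPM in MAMs. Of the 12 platelet genes listed 5 were tested, and 2 were called higher and 2 lower, against 15.3% and 15.1% of all tested genes. Gp1bb and Gp6 were at or near 0. The endothelial sum was 29.4, 59.5, 86.1, 114 and 79.4 CPM in MAMs, against 129 to 215 in RAMs, with Kdr, Vwf and Pecam1 highest in MAMs. Vwf made up most of the RAM sum, at 125 to 207 CPM in RAMs and 6.36 to 25.6 in MAMs. Kdr (12.1 to 54.3 CPM in MAMs, 0.210 to 1.92 in RAMs) and Pecam1 (4.43 to 30.8 and 0.518 to 4.71) went the other way. Of 4 tested genes, 3 were called higher and 1 lower, against the same shares, and Cldn5 had no reads in MAMs. Selp and Icam2 were highest in the library with the lowest sum of either list. What part platelets or endothelial cells had in the levels of Selp and Icam2 was not tested.

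Kupffer cells share Cd5l and Timd4. Of 10 listed genes of Kupffer cells and other tissue macrophages, 7 of the 8 tested were called higher in MAMs, where 15.3% of all tested genes were, at 328, 424, 422, 436 and 332 CPM in sum against 34.6 to 53.7 in RAMs. Folr2, Slc40a1 and Nr1h3 led the list, and 1 of the 8 (Vsig4) had replicates 1 and 2 above the rest, against 15.2% of all tested genes. Clec4f, which defines Kupffer cells, had no reads in any library. This sum was fairly even over the 5 MAM libraries, as Cd5l was. Evenness was not particular to the list, since monocyte genes without Fn1 were at 903 to 1093 CPM. Within the list Vsig4 was uneven, at 1.98 to 41.5 CPM. What part Kupffer cells had in the levels of Cd5l and Timd4 was not tested. Eosinophils share Alox15. Without Siglecf, which RAMs carry, the other 5 of their 6 listed genes summed to 0.0937 to 5.54 CPM in MAMs, Ccr3 was highest in replicate 5, Il5ra was at most 0.183 CPM, and Prg2 and Prg3 had no reads.

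Alveolar macrophage genes summed to 696, 537, 440, 320 and 377 CPM in MAM replicates 1 to 5, the library order of the mean of the markers, against 3604 to 3983 in RAMs. Marco, Itgax and Pparg were the highest of them in MAMs, and without Marco the sum was 307, 217, 227, 230 and 228 CPM. Neutrophil genes, with Csf3r, Mmp8 and Cxcr2 highest, summed to 124, 149, 218, 312 and 218 CPM in MAM replicates 1 to 5. T and NK cell genes, with Cd3e, Lck and Nkg7 highest, summed to 2.01 to 5.92 CPM in MAMs. Genes of epithelial and mammary tumour cells, with Krt19, Cdh1 and Krt18 highest, summed to 10.6 to 24.5 CPM in MAMs, against 590 to 702 in RAMs. Lung epithelial genes, with Sftpc, Ager and Sftpa1 highest, summed to 1.59 to 15.7 CPM in MAMs.

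**Figure D5:**
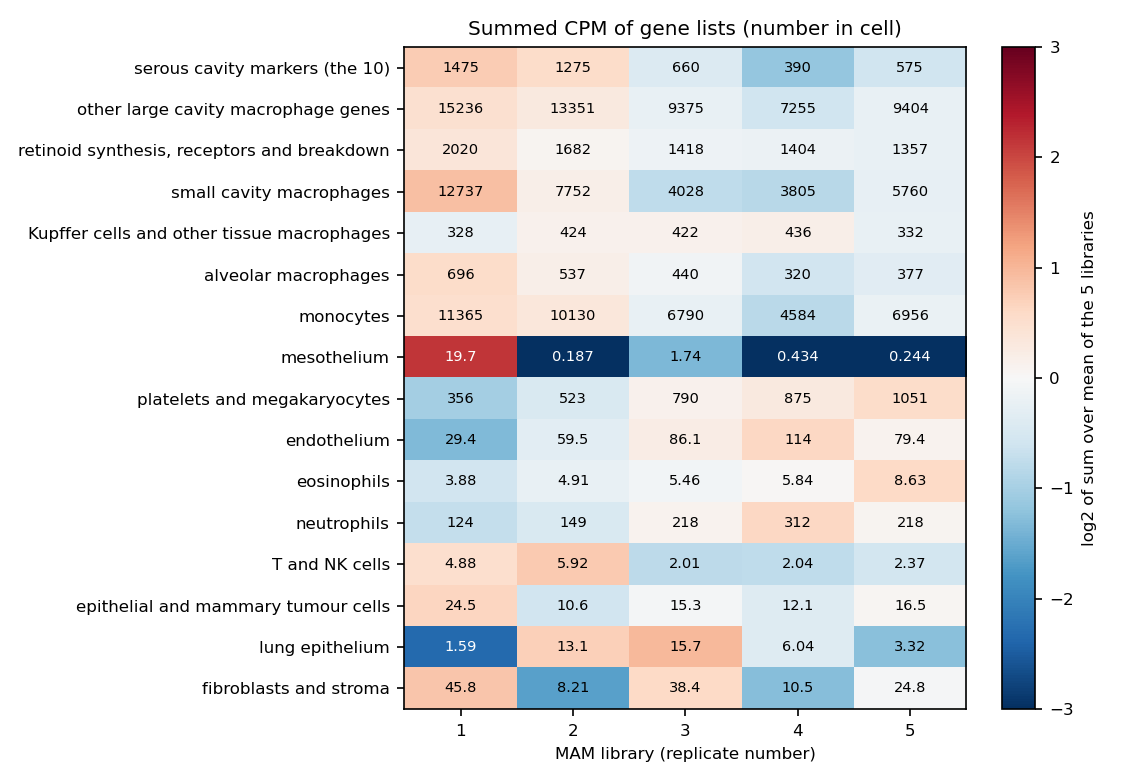
Summed CPM of gene lists in the 5 MAM libraries (number in each cell), coloured by the log2 of the sum over the mean of the 5 libraries, with colours held at the ends of the scale beyond them. The sum of the 10 markers ran from 1475 CPM in replicate 1 to 390 in replicate 4, small cavity macrophage genes moved the same way, and platelet and endothelial genes were lowest in replicate 1.

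The whole transcriptome was searched for genes whose log2 CPM over the 5 MAM libraries, each centred on its mean, lay closest to the mean of the 10 markers. Likeness was the root mean square difference over 5 libraries, and the median over 9509 candidate genes with at least 5 CPM was 0.898. Selp, Timd4 and Serpinb2 were the members nearest their own mean, at 0.114, 0.123 and 0.170, and Prg4 and Cd5l were the farthest of those with at least 5 CPM, at 0.606 and 0.773. The closest gene outside the list was Efnb2, at 0.093, with 233, 160, 90.2, 42.4 and 68.7 CPM in MAM replicates 1 to 5. Marco, a scavenger receptor gene, followed at 0.135, with 389, 320, 213, 89.7 and 149 CPM in MAMs, against 284 to 531 in RAMs, so its groups overlapped. Next were Slc9a3r2 (0.166), Slpi (0.172), Gbp2b (0.183), Saa3 (0.184), Slc7a2 (0.194), Pls3 (0.209), Sectm1a (0.230) and Cxcl11 (0.231). Of the 10, 6 were called higher in MAMs, where 15.3% of all tested genes were called higher and 15.1% lower. Slc7a2, a cationic amino acid transporter gene, was called lower (-2.91), and Marco, Slc9a3r2 and Slpi were not called. A profile over MAM libraries like that of the 10 markers was thus found in genes that differed from RAMs in either direction or in neither.

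The other markers were left out of the same search around Gata6, so it does not show whether a marker lay nearer. Among tested genes outside the list with at least 5 CPM in MAMs, the closest to Gata6 were Cxcl13 (0.842), Serpina3g (1.03), Efnb2 (1.05), Tmem176b (1.06) and Cxcl9 (1.10). None was as near as the 10 genes closest to the mean were to it. Cxcl13 had 1623, 1330, 720, 367 and 206 reads in MAM replicates 1 to 5, which was 2.96 CPM in the last, and like Gata6 it was low in both replicates 4 and 5.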

How the data were processed

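RNA was sequenced from 5 MAM and 5 RAM samples, grouped by the sample records. The authors aligned paired reads of Ovation RNA-Seq libraries to GRCm38 (mm10) with TopHat2 2.0.13 and deposited whole-number counts per gene from HTSeq 0.6.1, and FPKM from Cufflinks 2.2.1. The strand setting is not given in the sources used here. Lines that name no gene (54.6% to 58.3% of the total in MAMs, 62.2% to 64.1% in RAMs) were left out. From the counts, MAMs were compared with RAMs by edgeR's quasi-likelihood test (edgeR 4.0.16, R 4.3.3) with TMM normalization on 11571 genes, those whose mean FPKM reached 1 in MAMs or RAMs. A called gene had a fold change over 2 and a Benjamini-Hochberg adjusted p under 0.05. MAM samples are pools of mice, and the labels give no pooling for RAM samples. The paper describes a sample as an individual mouse or as pooled lung metastases. By that description the unit differs between the groups. The p-values rest on the spread between samples. The limit of 3 reads at a count of 0 covers counting error only.

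The 10 genes and all gene lists were chosen with earlier results of these data known. Beside the 10, the text names the genes of the sorting markers, the called genes of the cavity and retinoid lists, the 3 genes of each cell type list with the highest mean CPM in MAMs, the 10 genes nearest the mean of the markers and the 5 nearest Gata6. The values of 1 cell type list are not reported here. Any other gene named, and the pattern of replicates 1 and 2 above 3 to 5, was chosen after its values were seen. Alternatives were RLE and upper-quartile scaling, library totals, DESeq2 1.42.0, other filters, a prior count of 0.5, limma 3.58.1 on log2(FPKM + 1) and log2(FPKM + 0.1), a replicate block and each library left out. The fit and the likeness measure were tested on simulated data. Positions are from GENCODE M21 on GRCm38. Figures were drawn with matplotlib 3.10.9.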

Additional observations from a re-analysis of the deposited data

Results flagged for a closer look

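In 54 groups of 5 libraries (MAMs and RAMs for each of the 10 markers and for the sum of each other gene list), the library at either end was compared with the rest, a rule that chance meets in about 1 of 20 groups. It marked 2 libraries, both in the markers and neither in a list sum. Gata6 in RAM replicate 2 had a log2 CPM of -0.91, from 33 reads, where the other RAM libraries lay between -4.76 and -3.67 with 0 to 2 reads. Garnl3 in RAM replicate 4 had a log2 CPM of -4.11, from 1 read, where the others lay between -1.46 and -0.56 with 19 to 31 reads. RAM replicate 2 did not stand apart in the other tested markers, where Prg4 was at 7.40 CPM and Timd4 at 1.23. The cause was not tested for either.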

How the results depend on the processing

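No log2 fold change of the markers, the cavity list or the retinoid list changed sign in any alternative fit. The balance of all calls did change. In the main fit 1766 were higher in MAMs and 1745 lower. Lower calls outnumbered higher ones with upper-quartile scaling, library totals, limma on log2(FPKM + 0.1) and the replicate block. The count of genes called ran from 2909 (limma on log2(FPKM + 1)) to 4672 (no filter), and 8 markers were called throughout, or 9 where the filter let Gata6 in. Without the FPKM filter 8 retinoid genes were called in place of 4. Of the 4 gained, Aldh1a3, Crabp2 and Cyp26b1 had not been tested before, and Rarb passed at an adjusted p of 0.0498 (edgeR) in place of 0.0530. The number of markers highest in the same MAM library was 6, and 6 to 10 as each library was left out, 10 without MAM replicate 2. The spread of the mean of the markers was 2.45, 1.92 on log2(FPKM + 1) and 1.60 to 2.45 as each library was left out, and 2.85 without Cd5l and Garnl3, an alternative chosen after seeing the data. Log2 fold changes on log2(FPKM + 1) were smaller for low levels, 2.40 for Selp and 3.81 for F5. Upper-quartile scaling and library totals moved the median of all tested genes to -0.18 and -0.24, and the share of calls that were higher in MAMs from 50.3% to 43.0% and 40.7%. Same-numbered MAM and RAM samples did not deviate together (correlations of -0.0366 to 0.0294), and the main fit had no term for the number. Such correlations between different cells cannot show whether same-numbered samples were handled together. With the replicate block 3526 genes were called, and the counts for the markers, the cavity list and the retinoid list were 8, 13 and 4. Depth limits Gata6 and Garnl3, with as few as 9 and 28 reads in a MAM library.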
